A study of Homo sapiens with 6 samples.

Results

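CpGs with a mean methylation above 80% that lie where CpGs are crowded made up 17897 of the 330421 autosomal CpGs (5.42%) read in every library of this series. A CpG entered the count when at least 10 reads covered it in each of the 6 libraries, and such CpGs are called common below. It was chosen when its mean methylation over the 6 libraries was above 80% and its 1000-base window, counted from position 1 of the chromosome in build hg19, held at least 40 CpGs listed in any library (a dense window). The level and the density therefore chose these CpGs, and both are given below as descriptions. Density counts listed CpGs, so a window with few of them may hold others that were not listed. They came from PC-3, an established androgen-independent line from a bone metastasis of a human prostate carcinoma. Its cells had been given 160 µM S-adenosylmethionine (SAM, the methyl donor of DNA methyltransferases; 3 libraries) or vehicle, PBS (control; 3 libraries), for 5 days. The design asks whether the added methyl donor changed DNA methylation. All libraries come from this 1 line. No label ties a replicate to a culture of its own, so the p-values rest on a spread between libraries that may be technical.

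In vertebrate genomes most CpGs are methylated and have been lost by deamination over evolution, while CpG-dense stretches, the CpG islands, usually stay unmethylated and often mark promoters. Methylated islands occur in gene bodies, at imprinted genes, at genes whose expression is limited to the germline, at repeats, and, in tumours, at promoters of developmental genes. Methylation of an island promoter is associated with silencing of its gene, whereas methylation inside a transcribed gene body is compatible with expression. Expression was not measured in these samples.

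To show what such a stretch looks like, the 250 bases before the start of 5 genes are printed, those protein-coding genes whose promoter held the most of the chosen CpGs (GAL3ST1, not printed, ties with FAM217A at 19). Letters and starts are RefSeq's, in build GRCh38.p14, read 5′ to 3′ on the gene's strand, and capitals mark the chosen CpGs. The levels come from the hg19 positions on which the spacing of the CGs in those letters fell.
DNAH10, chr12:123762051-123762300, plus strand: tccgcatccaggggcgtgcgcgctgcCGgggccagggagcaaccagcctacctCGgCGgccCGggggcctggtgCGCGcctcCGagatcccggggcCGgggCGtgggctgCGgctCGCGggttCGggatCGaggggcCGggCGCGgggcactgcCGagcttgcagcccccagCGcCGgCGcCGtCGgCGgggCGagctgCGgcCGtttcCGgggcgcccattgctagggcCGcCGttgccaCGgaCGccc
MIXL1, chr1:226223414-226223663, plus strand: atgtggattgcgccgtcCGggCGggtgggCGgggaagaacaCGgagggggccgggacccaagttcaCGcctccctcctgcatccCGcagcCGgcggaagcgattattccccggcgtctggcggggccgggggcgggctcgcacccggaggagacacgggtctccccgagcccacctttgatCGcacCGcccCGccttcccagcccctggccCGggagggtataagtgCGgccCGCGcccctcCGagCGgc
VWC2, chr7:49773388-49773637, plus strand: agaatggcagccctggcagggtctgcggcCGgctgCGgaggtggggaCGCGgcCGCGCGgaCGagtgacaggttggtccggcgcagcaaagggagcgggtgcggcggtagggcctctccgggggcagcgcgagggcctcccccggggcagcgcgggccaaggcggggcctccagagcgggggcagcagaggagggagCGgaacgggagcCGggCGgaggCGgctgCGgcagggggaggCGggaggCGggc
BNC1, chr15:83284665-83284914, minus strand: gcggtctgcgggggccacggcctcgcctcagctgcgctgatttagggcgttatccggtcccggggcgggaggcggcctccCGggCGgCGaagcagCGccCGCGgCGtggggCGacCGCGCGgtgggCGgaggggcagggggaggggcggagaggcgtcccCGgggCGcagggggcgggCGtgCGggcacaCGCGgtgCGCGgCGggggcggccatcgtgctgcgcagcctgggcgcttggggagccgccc
FAM217A, chr6:4079138-4079387, minus strand: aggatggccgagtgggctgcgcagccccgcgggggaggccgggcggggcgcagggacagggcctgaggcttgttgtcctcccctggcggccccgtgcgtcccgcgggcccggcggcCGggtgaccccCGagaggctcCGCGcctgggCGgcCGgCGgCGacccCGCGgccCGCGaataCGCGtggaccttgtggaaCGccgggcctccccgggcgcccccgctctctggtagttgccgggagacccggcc
Of the 38 CGs in the printed DNAH10 stretch 32 are in capitals, and of the 39 in BNC1 21 are. CGs in lower case were mostly not read in every library. In BNC1 and DNAH10 every common CpG of the promoter was a chosen one.

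Dense windows were mainly unmethylated. Of their 129002 common CpGs, 96425 (74.7%) had a mean under 20%, 14680 (11.4%) lay between 20 and 80%, and 17897 (13.9%) were highly methylated. In windows with 1 to 14 listed CpGs (sparse windows below) 55339 of 94120 common CpGs (58.8%) exceeded 80%, and in windows with 15 to 39 the number was 31729 of 107299 (29.6%). Within the dense windows the share was 15.2% for 40 to 59 listed CpGs, 13.2% for 60 to 79, then 12.0% in the densest windows. Most of the chosen CpGs stood far above the limit that chose them. Their median level was 97.6%, with quartiles of 94.4% and 98.7%, close to the median of 97.5% of highly methylated CpGs in sparse windows. A mean above 95% was reached by 12973 of the chosen CpGs (72.5%), and 622 had no unmethylated read in any library. At the level limit, 231 CpGs lay between 80 and 81% and 250 between 79 and 80%. At the density limit, 733 of 3543 common CpGs (20.7%) in windows of 40 listed CpGs exceeded 80%, and 632 of 4039 (15.6%) in windows of 39.

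All 6 libraries were above 80% at 15059 of the 17897 CpGs (84.1%), a description of the values that chose them. When the choice was made on 5 libraries and read in the one left out, the mean there was 95.1 to 95.2%, and 93.8 to 95.6% of CpGs were again over 80%. In the library left out, 2 to 48 such CpGs were under 20%, the most in SAM replicate 2, one of the 2 shallow libraries. Per chosen CpG, SAM replicates 1 to 3 had medians of 163, 50 and 163 reads, and control replicates 1 to 3 had 185, 43 and 192, within totals of 33056018 to 183523792 reads over listed positions. The share with no unmethylated read was 48.2% and 45.8% in the 2 shallow libraries (SAM and control replicate 2) and 22.1 to 29.3% in the others. The median SD between libraries was 2.23 percentage points, where counting error alone would give 1.55. Above 95% methylation it was 1.62 points, against 1.90 in sparse windows, while counting error alone would give 1.22 and 1.41.

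The chosen CpGs were concentrated in windows where most common CpGs were chosen ones. They lay in 1379 of the 6170 dense windows with a common CpG (22.3%), and 523 of these, in which at least 80% of common CpGs were chosen, held 11091 of them (62.0%). In 259 windows every common CpG was a chosen one. Another 315 windows had under 20% of their common CpGs chosen and held 756 of them (4.22%). Neighbouring windows were mostly methylated as well. Of 376 windows next to the 523 with at least 3 common CpGs, 292 (77.7%) had a mean over 80% and 28 (7.45%) a mean under 20%.

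**Figure D1:**
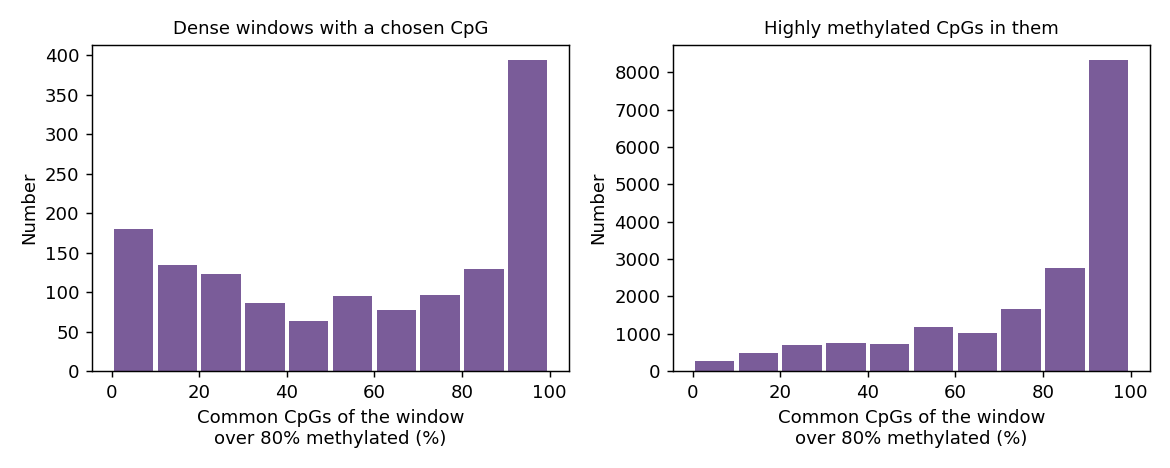
The horizontal axis of both panels is the percent of a window's common CpGs that were over 80% methylated, in steps of 10; bars give the number of dense windows (left) and of highly methylated CpGs in them (right). The last step holds 394 windows and 8320 CpGs.

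Spacing to the next CpG follows from the density rule and is given as a description. The nearest listed CpG was a median of 4 bases away for the chosen CpGs and 3 for dense CpGs under 20%. The nearest common CpG under 20% was a median of 3289 bases away, against 37 for dense CpGs at 20 to 80%. For 6216 of the chosen CpGs (34.7%) it was more than 10000 bases away, and for 1890 (10.6%) within 100. Those 1890 had a median level of 95.6% and a mean SD between libraries of 4.95 points. Between 1000 and 10000 bases away the median level was 98.0% and the SD 3.03 points, and beyond 10000 bases they were 97.7% and 3.39 points.

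Runs of neighbours at most 100 bases apart, with no other common CpG between them, showed the same clustering. There were 508 runs of 10 or more, holding 8395 of the chosen CpGs (46.9%), and 960 CpGs stood alone. The longest run, 61 CpGs in 498 bases, lay on chromosome 19 from 1229309 to 1229806, in the window that held the most chosen CpGs. In that window, chromosome 19 from 1229001 to 1230000, all 91 common CpGs were chosen, and 148 CpGs were listed. With SAM its methylation was 98.3, 97.4 and 98.4% (replicates 1 to 3, the order used throughout), and in controls 98.8, 98.6 and 97.7%, so the groups overlapped. The next, on chromosome 10 from 105344001 to 105345000, had 78 of 79, at 98.2, 98.5 and 98.0% with SAM and 97.9, 97.7 and 97.8% in controls. The third, on chromosome 7 from 5428001 to 5429000, had 74 of 74, at 98.5, 97.2 and 98.3% with SAM and 98.3, 97.7 and 98.4% in controls. The other 7 of the 10 windows with the most chosen CpGs held 53 to 71 of them, on chromosomes 5, 7, 8, 10, 13 and 19. Their library means ran from 92.9 to 99.3%. Of the 10, the window on chromosome 10 from 105344001 and one on chromosome 8 from 144378001 to 144379000 had all SAM libraries above all controls, by 0.456 and 0.31 points. Over 6844 windows of any density with at least 5 CpGs over 80%, 7.39% did.

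A few windows changed from methylated to unmethylated inside 1000 bases. There were 32 with at least 10 chosen CpGs and at least 10 common CpGs under 20%. In each of the 5 with the most of both, all chosen CpGs lay on one side of all CpGs under 20%. On chromosome 17 from 43045001 to 43046000, 16 chosen CpGs at 13 to 289 bases from the window's start stood at 93.2% ± 1.57 in SAM libraries and 93.0% ± 1.08 in control libraries (SD, n = 3 each). The 34 CpGs under 20%, at 514 to 953 bases, stood at 4.56% ± 1.303 and 3.51% ± 0.881. Both sides were thus read in the same libraries, and each differed between the groups by less than the larger of their SDs. The first of 2 windows on chromosome 22, from 38851001 to 38852000, had 18 chosen CpGs at 93.6% ± 1.67 with SAM and 95.8% ± 0.71 in controls, and 24 low ones at 5.19% ± 1.70 and 10.1% ± 7.06. The second, from 46932001 to 46933000, had 22 at 94.8% ± 2.56 and 96.1% ± 0.977, and 18 low ones at 6.47% ± 3.61 and 4.57% ± 2.67. In all 5 windows the groups overlapped at the chosen CpGs. The other 2 lay on chromosome 20, from 61050001 to 61051000 and from 62463001 to 62464000, with 16 chosen CpGs each.

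**Figure D2:**
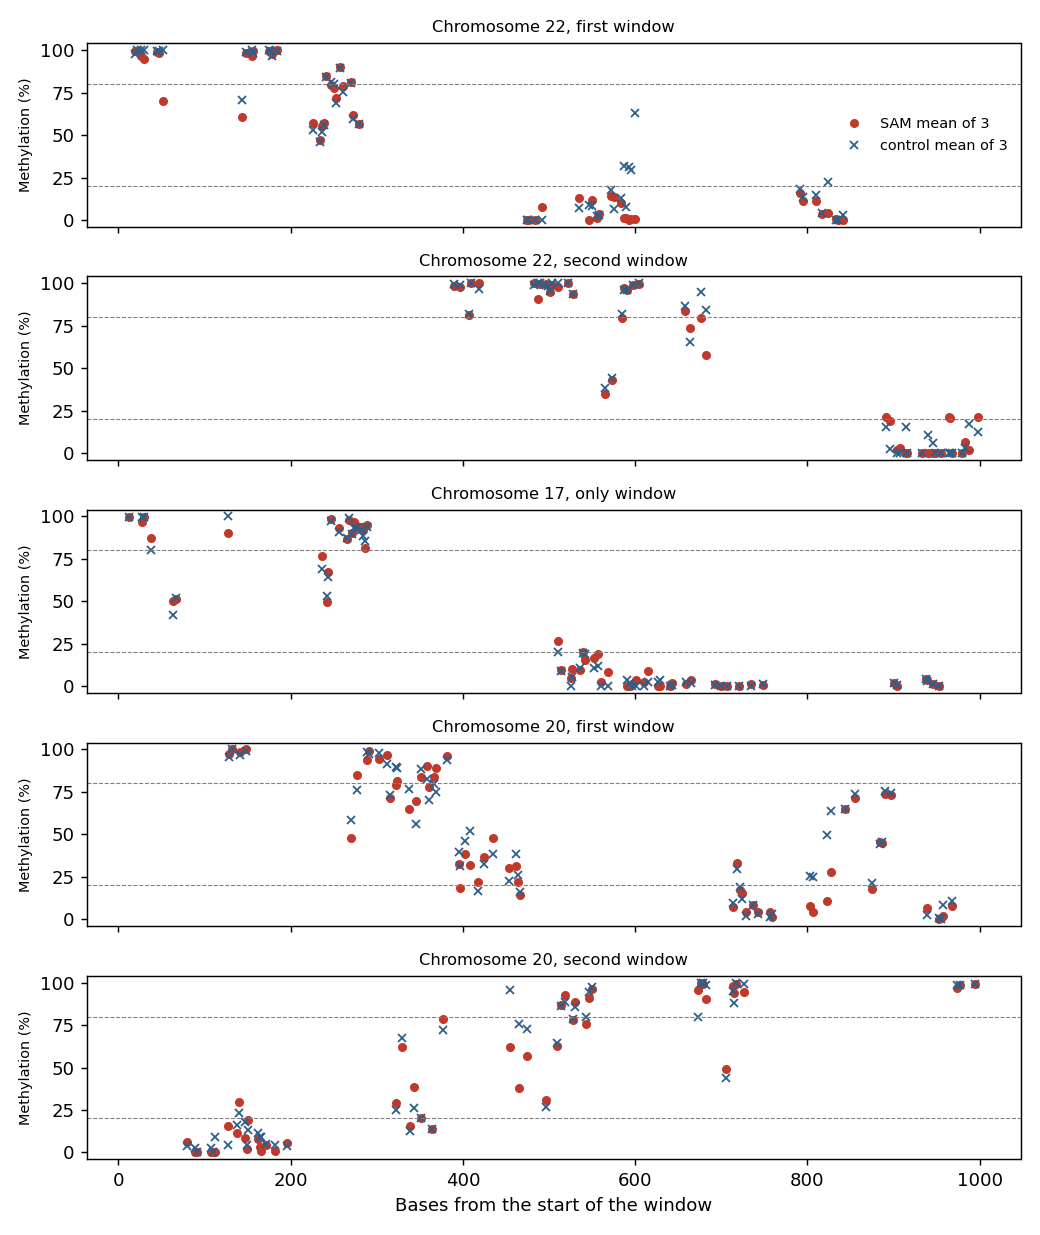
Each panel is 1 of the 5 windows; the horizontal axis is bases from the window's start and the vertical axis methylation in percent, with 1 filled point (SAM mean of 3) and 1 cross (control mean of 3) per common CpG and dashed lines at 20 and 80%. In the chromosome 17 window the chosen CpGs end at 289 bases and the CpGs under 20% begin at 514.

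Chromosome 19 stood apart in how much of its dense sequence was methylated. There 1920 of 7726 common CpGs in dense windows (24.9%) were highly methylated, in 125 windows. The other autosomes had 9.8% (chromosome 3) to 17.6% (chromosome 22), with a median over all 22 of 13.7%. In sparse windows chromosome 19 was not the highest, at 62.3% against 70.1% on chromosome 21. Counted from the last listed CpG of each chromosome, the outermost 2000000 bases held 2166 of the chosen CpGs (12.1%). There 19.1% of dense common CpGs were highly methylated, and 13.4% elsewhere. CpGs of 1 chromosome share the same 6 libraries and are not replicates, so these shares carry no test.

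**Figure D3:**
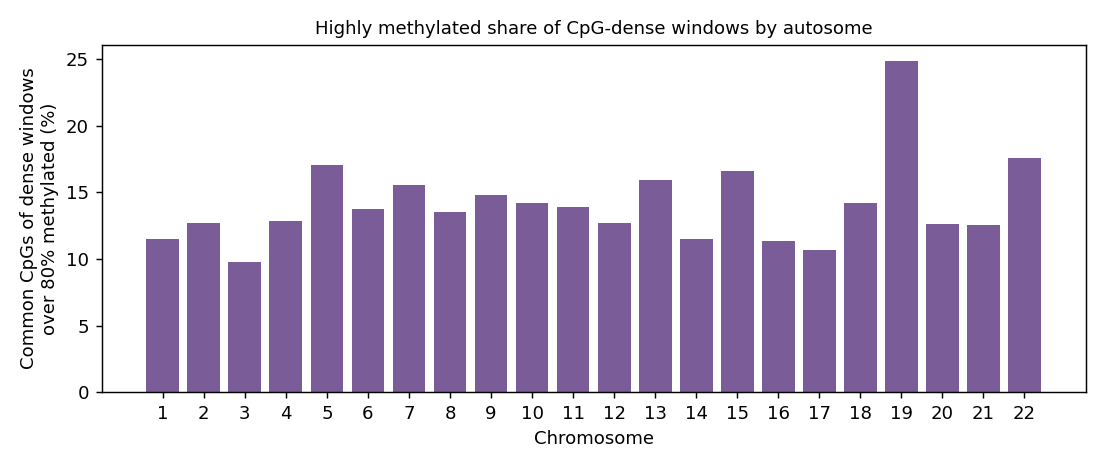
Bars give, for each autosome on the horizontal axis, the percent of common CpGs in dense windows that were over 80% methylated. Chromosome 19 reaches 24.9%, and the next highest, chromosome 22, 17.6%.

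A promoter is taken here as RefSeq's 250 bases before and 50 after a gene's start. Of 18977 autosomal promoters with at least 10 CGs, 5759 could be placed on the listed hg19 CpGs by the spacing of their CGs alone (30.3%). Of those, 3661, belonging to 3364 genes, had at least 5 common CpGs. Placed promoters held few of the chosen CpGs, 1425 in all (7.96%), although they held 18.7% of dense common CpGs. Of dense common CpGs inside them 5.92% were highly methylated, and 15.7% outside them. Those outside include CpGs of promoters that could not be placed, so this does not compare promoters with other sequence. In 3039 of the 3661 promoters (83.0%) at least 80% of the common CpGs were under 20%. In 63 (1.72%), belonging to 41 protein-coding and 16 long noncoding RNA genes, at least 80% were chosen CpGs. Under a stricter placement, with 80% rather than 50% of a promoter's CGs listed, the count was 23 of 986 (2.33%). Several of the 63 overlap, such as 3 starts of CCDC178 and 2 of TSPAN11, and share CpGs.

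The density rule and the placement both favour promoters rich in CGs. Both the 63 and the 3039 had a median of 36 CGs in 300 bases, and the median GC content was 75% and 74%. The letters GGGCGG, the core of SP1 sites, or their complement occurred in 88.9% of the 63, 90.5% of the 3039 and 45.0% of all 33725 autosomal promoters. CCGG, its own complement, occurred in all promoters of both sets and in 63.2% of all autosomal ones. The ETS-type letters CCGGAAG, which contain CCGG, were in 22.2%, 21.7% and 10.3%, and CACGTG, an E-box, in 6.35%, 8.98% and 7.18%. The letters TGACG, found in cyclic AMP response elements, were in 23.8% of the 63, 33.1% of the 3039 and 24.3% of all. The full element TGACGTCA, which contains them, was in 0 of the 63, 2.63% of the 3039 and 1.87% of all. The palindromic core of NRF1 sites was in 0 of the 63, 2.47% and 1.23%. TATAAA was in 1.59%, 2.04% and 11.6%, and CCAAT in 15.9%, 24.02% and 34.4%. These are all 9 motifs searched, each on both strands. A match describes the letters only, and no match says only that they are not in these 300 bases.

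Single promoters among the 63 are described next, chosen after their values were seen; no role was counted or tested over them. A gene can have other starts that were not placed, so each value holds for the placed start only. MIXL1, a homeobox factor of mesendoderm, had 23 of 25 common CpGs chosen, and the promoter stood at 95.3, 96.5 and 96.3% with SAM and 95.9, 95.3 and 92.9% in controls. SOX1, a factor of neural progenitors, had 17 of 19, at 91.5, 95.6 and 93.4% with SAM and 90.3, 88.2 and 92.7% in controls. TBX20, a T-box factor of the heart, had 16 of 19, at 84.5% ± 0.946 under SAM and 84.5% ± 2.76 under PBS (SD, n = 3 each). At all 3 of these promoters the groups overlapped. NKX1-1, another homeobox gene, had 12 of 12 at 97.0 to 97.5% over the 6 libraries. WNT2 and WNT3, secreted ligands of the WNT pathway, had 13 of 14 and 9 of 9. WNT2 stood at 98.7, 98.7 and 97.1% with SAM and 89.0, 98.0 and 93.6% in controls, and control replicate 2 lay among the SAM libraries. VWC2, a secreted antagonist of BMP signalling, had 21 of 26, and SAM replicate 2 was the lowest library there, at 78.5%. TRIM71, an RNA-binding protein of embryonic cells, had 13 of 13, at 95.5 to 98.6%.

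DNAH10, a heavy chain of the dynein arms of motile cilia, had 35 of 35 common CpGs chosen, the most of any placed promoter, at 98.3, 96.9 and 97.7% with SAM and 98.1, 97.9 and 96.7% in controls. BNC1, a zinc finger protein of keratinocytes and germ cells, had 21 of 21 at 96.4 to 97.0% in the 6 libraries, one of the narrowest ranges. CATSPER2, part of the calcium channel of sperm, had 9 of 10 at 1 of its starts, at 97.9 to 99.1%. TDRD9, a helicase of the piRNA pathway, had 10 of 11, at 95.5, 97.6 and 82.7% with SAM and 96.6, 92.8 and 97.1% in controls, so that SAM replicate 3 was the low library.

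DMGDH, the mitochondrial dimethylglycine dehydrogenase of choline breakdown, and BHMT2, a homocysteine methyltransferase that uses S-methylmethionine, had overlapping promoters on chromosome 5, with 13 of 14 and 7 of 8 common CpGs chosen. DMGDH stood at 95.4, 95.6 and 95.4% with SAM and 94.4, 93.4 and 94.1% in controls. BHMT2 stood at 93.7, 92.0 and 93.0% with SAM and 92.3, 91.5 and 92.4% in controls, with overlapping groups. GAL3ST1, which makes sulfatide, had 19 of 19 at 97.5 to 98.8%, and CIDEB, a lipid droplet protein, 17 of 17 at 97.0 to 99.3%. RASGRF2, an exchange factor for Ras, had 17 of 17 at 94.5 to 99.3%. NSD1, a methyltransferase for lysine 36 of histone H3, had 11 of 11 at 97.7 to 99.89%. The promoter of SEPTIN9, a cytoskeletal GTPase gene, had 9 of 11 at 81.7 to 89.0%. GCGR, the glucagon receptor, had 8 of 8 at 93.7 to 97.7%.

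**Figure D4:**
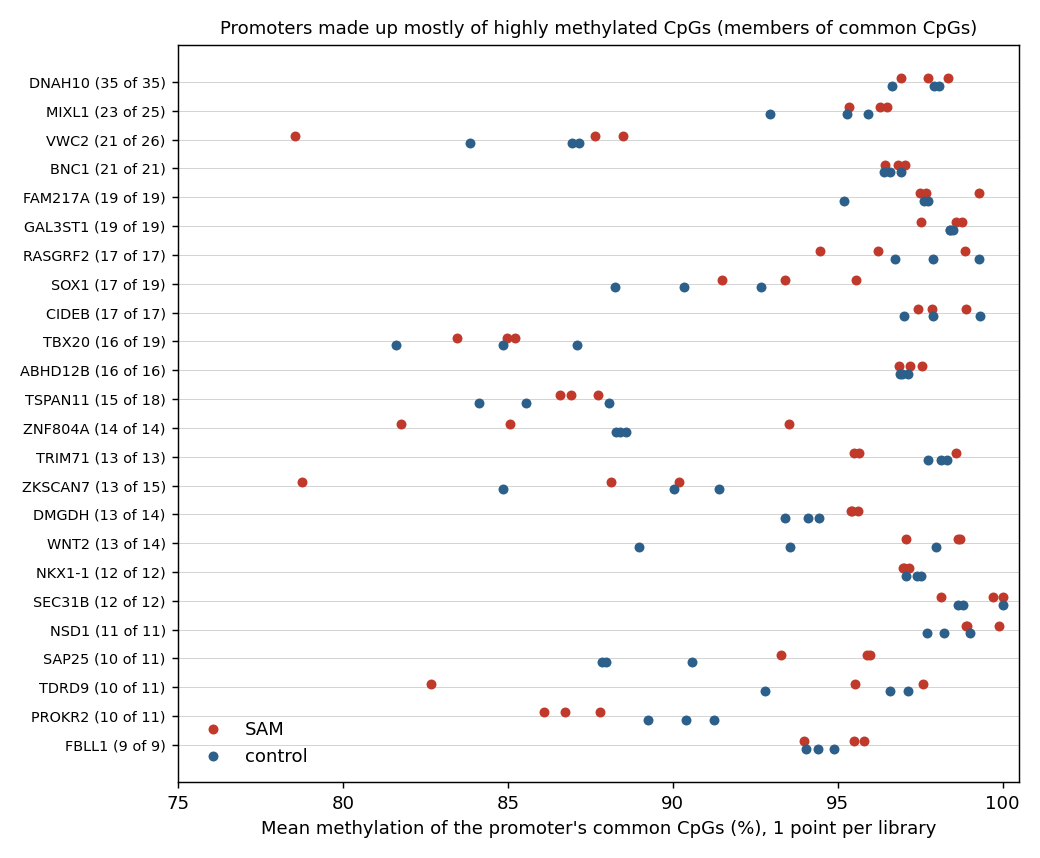
Rows are the 24 protein-coding genes with the most chosen CpGs in a placed promoter (in brackets, chosen of common CpGs), and the horizontal axis, which starts at 75%, is the mean methylation of the promoter's common CpGs, 1 point per library. DNAH10 leads with 35 of 35, and DMGDH and SAP25 show all SAM libraries above all controls, PROKR2 all below.

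Few genes of 3 reference lists could be placed. Of 17 genes known for methylation in prostate cancer, 4 were placed (GSTP1, RARB, RASSF1 and RUNX3), and none had 80% or more chosen CpGs. Each gene was read only at a start that was placed, which need not be the start known for methylation. RUNX3, a tumour suppressor of the RUNX family, had 4 chosen among 11 common CpGs, with the promoter at 53.1% ± 6.57 with SAM and 55.6% ± 2.25 in controls. RASSF1, a Ras effector, had 18 of 18 common CpGs under 20% at the start that was placed. GSTP1, a glutathione transferase, had 5 common CpGs and none chosen, at 17.1, 17.2 and 23.5% with SAM and 15.7, 22.6 and 46.4% in controls. Of 14 germline genes, BOLL and TDRD12 were placed, and of 10 housekeeping genes TUBB, all 3 with no chosen CpG. TDRD12, of the piRNA pathway, stood at 98.5% ± 1.59 with SAM and 98.7% ± 1.31 in controls, and BOLL, an RNA-binding protein of sperm formation, at 82.2% ± 2.68 and 85.2% ± 9.95 (SD, n = 3 each). Neither promoter lay in a dense window.

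The rule takes the mean of all 6 libraries and so does not use the difference between SAM and control, which can be tested over libraries. A single CpG near the limit can still pass through its higher group alone. The chosen CpGs averaged 95.55, 95.85 and 95.39% with SAM, and the 3 controls 95.45, 95.48 and 95.44%. The groups overlapped, since SAM replicate 3 was the lowest of all libraries. SAM stood at 95.6% ± 0.231 and control at 95.45% ± 0.0207 (SD, n = 3 each), a difference of 0.144 points (standard error 0.134; exact permutation test, two-sided, p = 0.40). With 3 libraries against 3, p cannot go below 0.10. Read coverage divides the libraries into SAM replicate 1 with control replicates 1 and 3, and SAM replicates 2 and 3 with control replicate 2, and inside these sets the differences were 0.11 and 0.143 points. Without SAM replicate 2, the library highest at these CpGs, the difference was 0.00127 points, without SAM replicate 3 it was 0.284, and weighted by reads it was -0.0218.

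The same libraries gave a larger difference in sparse windows, those with few listed CpGs. There highly methylated CpGs stood at 96.1, 96.4 and 96.0% with SAM and 95.7, 95.7 and 95.6% in controls, with no overlap, a difference of 0.493 points (0.47 and 0.46 inside the coverage sets; exact permutation p = 0.10). To compare both classes inside each library, the mean of the sparse class was subtracted from that of the chosen CpGs. This gap was -0.575, -0.56 and -0.614 points with SAM, and -0.264, -0.27 and -0.167 points in controls. The mean of the chosen CpGs was thus below that of sparse ones in all 6 libraries, and further below in every SAM library than in any control. This holds for means, as the median level was 97.6% for the chosen CpGs and 97.5% for the sparse ones. The gap averaged -0.583 ± 0.0279 for SAM and -0.234 ± 0.0579 for control (SD, n = 3 each), a difference of -0.349 points (standard error 0.0371; exact permutation test, two-sided, p = 0.10, the smallest possible). Inside the 2 coverage sets it was -0.36 and -0.317 points. Over the 43 comparisons of library means made here, 7 of which did not overlap, the adjusted p of this one was 0.614 (Benjamini-Hochberg over exact permutation p-values). The chosen CpGs were also read more deeply than the sparse ones, in all 6 libraries. Median reads were 163 against 131, 50 against 34 and 163 against 121 with SAM. In controls they were 185 against 155, 43 against 34 and 192 against 159. The part of depth in the gap was not tested.

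**Figure D5:**
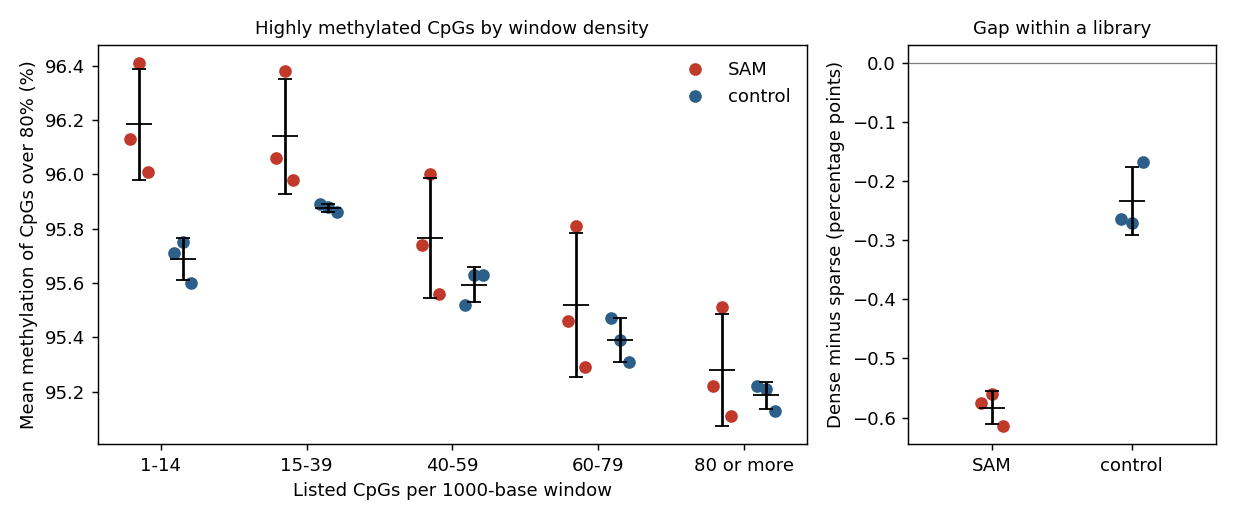
Left, mean methylation in percent of CpGs over 80% by the number of listed CpGs per window; right, the gap in percentage points between the dense class (40 or more) and the sparse class (1 to 14); points are libraries, bars mean and SD (n = 3), and the left vertical axis does not start at 0. SAM and control points overlap from 40 listed CpGs upward, and the gap is -0.56 or lower in each SAM library and -0.27 or higher in each control.

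Subdivision of the chosen CpGs showed small differences throughout. Split by density, SAM minus control was 0.172 points in windows of 40 to 59 listed CpGs, 0.131 in those of 60 to 79, and 0.0903 in denser ones, with overlap in all 3. In the 523 windows with at least 80% of common CpGs chosen, SAM stood at 96.9% ± 0.103 and control at 96.75% ± 0.0175 (SD, n = 3 each). The groups were 0.137 points apart without overlap (exact permutation p = 0.10, adjusted 0.614). In the other dense windows the difference was 0.155 points with overlap (exact permutation p = 0.80). CpGs more than 10000 bases from any common CpG under 20% differed by 0.167 points without overlap, and those within 100 bases by 0.307 points with overlap. By chromosome 16 of 22 differences were above 0, from -0.211 points (chromosome 9) to 0.524 (chromosome 10). Only chromosome 6 did not overlap, at 96.0% ± 0.112 with SAM and 95.7% ± 0.228 in controls.

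No single chosen CpG passed a test between SAM and control. Of the 17897, 17275 had both methylated and unmethylated reads and entered edgeR's quasi-likelihood test, which called 0 of them, as it called 0 (0.0%) of all 253063 CpGs tested. At an unadjusted p under 0.05 it gave 518 of the 17275 (3.0%), 247 higher with SAM, against 2.81% of all CpGs. Limma called 0 as well (0.0% of all), with 755 (4.37%) unadjusted against 4.07%. Of the dense windows with at least 3 chosen CpGs, edgeR called 0 of 1146 (0.0% of all 14146 windows), with 37 (3.23%) unadjusted against 3.85%. Limma called 0 (0.0% of all), with 20 (1.75%) unadjusted against 4.74%. A count of 0 does not show that such changes are absent.

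Those with the smallest p illustrate the size of differences at the top of the scale. At 144789088 on chromosome 8 methylation was 100, 100 and 99.86% with SAM against 95.5, 94.1 and 96.9% without, at 267 to 2172 reads in a library (adjusted p = 0.892 from edgeR). At 97499819 on chromosome 14 it was 98.8% ± 0.102 with SAM and 100% in each control (adjusted p = 0.892 from edgeR). The groups did not overlap at either, and the direction was opposite. A larger difference stood at 158937236 on chromosome 7, with 100, 100 and 99.5% with SAM and 37.5, 81.3 and 71.2% in controls, from 54 to 213 reads; inside the coverage sets it was 45.7 and 18.5 points. Its adjusted p from edgeR was also 0.892. The control mean at this CpG was 63.3%, under the level limit, so it passed the limit through its SAM libraries. The size of its difference therefore depends in part on how the CpGs were chosen. The 2 others lay on chromosomes 21 (46238718) and 20 (61510826), with SAM higher by 3.44 and 2.95 points. Among windows the smallest p was on chromosome 17 from 59482001 to 59483000, where 24 CpGs stood at 98.96, 99.5 and 98.9% with SAM and 97.8, 98.3 and 97.6% in controls (adjusted p = 0.601 from edgeR). The next 4 windows, on chromosomes 2, 6, 17 and 22, had differences from -2.61 to 2.38 points and adjusted p of 1 from edgeR.

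Window by window, SAM and control separated about as often as at all densities. Of 990 dense windows with at least 5 chosen CpGs, 58 (5.86%) had all SAM libraries above all controls, against 7.39% of 6844 windows of any density with at least 5 CpGs over 80%. All SAM libraries were below all controls in 34 (3.43%), against 3.05%. The median window difference was 0.138 points in dense windows and 0.237 in all. A difference over 5 points either way was seen in 24 dense windows (2.42%, against 2.41% in all).

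The largest of these differences, named for their size and without a test, lay in windows with 5 to 31 chosen CpGs. On chromosome 11 from 124791001 to 124792000, 6 CpGs stood at 93.5, 99.3 and 93.8% with SAM and 64.2, 88.5 and 85.5% in controls, a difference of 16.2 points (18.7 and 8.02 inside the coverage sets). Their control mean was 79.4%, under the limit, so as a set they passed it through the SAM libraries. On chromosome 4 from 164265001 to 164266000, a window that holds the placed promoter of NPY5R, a receptor of neuropeptide Y, 7 CpGs stood at 97.8% ± 1.21 with SAM and 91.5% ± 5.29 in controls. On chromosome 3 from 33260001 to 33261000, with the promoter of SUSD5, 10 CpGs stood at 97.0% ± 2.62 and 91.4% ± 1.53. The 2 others higher with SAM lay on chromosome 11 from 8290001 to 8291000 (6.8 points, 14 CpGs) and chromosome 17 from 66596001 to 66597000 (5.91 points, 20 CpGs). The opposite direction was largest on chromosome 14 from 103389001 to 103390000, where 7 CpGs stood at 83.4, 82.9 and 93.9% with SAM and 97.2, 96.3 and 96.3% in controls. On chromosome 15 from 92396001 to 92397000, with the promoter of the organic anion transporter gene SLCO3A1, 5 CpGs stood at 85.4% ± 1.64 with SAM and 93.1% ± 4.37 in controls. On chromosome 11 from 131780001 to 131781000, which holds the most upstream bases of the promoter of NTM, a neuronal adhesion protein, 31 CpGs stood at 87.0% ± 1.67 and 91.1% ± 1.83, 4.05 points apart. Of these 10 windows it held the most chosen CpGs. The last 2 lay on chromosome 14 from 102027001 to 102028000 (-6.64 points), which also holds the most upstream bases of the promoter of DIO3OS, an antisense gene of an imprinted domain, and on chromosome 17 from 59474001 to 59475000 (-4.67 points).

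At the 63 methylated promoters 6 (9.52%) had all SAM libraries above all controls, against 3.91% of the 3661 placed promoters. All were below in 1 (1.59%), against 4.07%. Most placed promoters (83.0%) were mostly under 20% methylated, so they are no background of equal level. In windows of any density with at least 5 CpGs over 80%, the shares were 7.39% above and 3.05% below. Of the 6 promoters higher with SAM, 3 are starts of CCDC178 that share CpGs. The first of these, on chromosome 18 from 31020486 to 31020785, stood at 89.6, 94.2 and 89.97% with SAM and 82.9, 82.4 and 87.4% in controls. DMGDH was given above, and PDE2A-AS2, a long noncoding RNA gene, stood at 90.7, 89.7 and 89.2% with SAM and 89.1, 88.3 and 88.1% in controls. SAP25, a subunit of the SIN3 corepressor complex, stood at 95.9, 96.0 and 93.3% with SAM and 88.0, 87.9 and 90.6% in controls, and by 6.61 and 6.77 points higher with SAM inside the coverage sets. PROKR2, a prokineticin receptor, was the one below, at 86.7, 86.1 and 87.8% with SAM and 89.2, 91.3 and 90.4% in controls, with -3.1 and -4.32 points inside the sets. None of these promoters was tested singly.

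Both strands could be compared at 1214 of the chosen CpGs, those with at least 10 reads on each strand in all 6 libraries; at the other 93.2% some library listed 1 strand only, and as the lists start at 10 reads the missing strand may hold fewer. The plus strand stood at 94.97% and the minus strand at 95.8%. The difference was -0.787 points ± 0.282 (SD over 6 libraries) and below 0 in each library, from -1.18 to -0.436. At 20 reads per strand it was -1.17 points over 439 CpGs. The strands were within 10 points of each other at 92.9% of the 1214, against 96.7% of 750 sparse CpGs, and over 20 points apart at 29 of them (2.39%).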

How the data were processed

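DNA of 6 PC-3 libraries was bisulfite sequenced. Bismark 0.7.4, methylKit 0.5.3, CASAVA 1.8.2, FastQC 0.10.0 and build hg19 are named, with no role or order, per the submitters' processing notes; the sources used here give no library type, read filter or duplicate removal. The deposited lists give, per the file headers, the count of reads at each cytosine and the percent reading C and T. The lowest count in the lists was 10 reads. Methylated reads were taken as count times percent C, rounded to whole reads, and minus-strand positions were moved back 1 base to join their CpG. Reads copied in amplification cannot be told from independent molecules.

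Members and lists were chosen with earlier results of these data known. The distance classes, chromosome ends, coverage sets, the 80% class of windows and promoters, motifs and promoters described singly were chosen after values were seen and carry no claim of their own. Library means were unweighted over CpGs and compared with exact permutation tests. Single CpGs, and windows with at least 3 CpGs over 80%, were tested over all autosomes with the quasi-likelihood test of edgeR 4.0.16 and with limma 3.58.1 (log2 ratios, 0.5 reads added) in R 4.3.3, with Benjamini-Hochberg adjustment at 0.05; features without both kinds of read were left out. edgeR was tested on simulated data. Windows named are those with the most members, the most members and low CpGs, the longest runs, the smallest p and the largest differences without overlap.

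The reference tables are of GRCh38.p14, not hg19, so no coordinate was carried over, and promoters are RefSeq's 300 bases in place of the 1 kb either side of the start that had been planned. A promoter was placed where at least 10, and at least 50%, of its CGs fell on listed CpGs with no other listed CpG between them, at 1 position only. None fitted at several. Of 5738 neighbouring pairs, 5735 (99.95%) kept the table's order, and 19 promoters could be placed with the spacing mirrored. This procedure was devised after the data were seen. Its first setting asked for 80% of CGs listed and placed 1243 promoters (2 mirrored); it was relaxed to 50% after that output. Promoters with few listed CpGs are missing. Python 3.11.15, numpy 2.4.6 and pandas 2.3.3 were used.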

Additional observations from a re-analysis of the deposited data

How the results depend on the processing

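The difference at the chosen CpGs, 0.144 points, became -0.0218 when CpGs were weighted by reads; the cause was not tested. It kept its sign under the other 14 settings, namely a minimum of 20 reads, density limits of 30 and 50, level limits of 70 and 90%, shifted windows, removal of extreme coverage, the replicate block and each omitted library (0.00127 to 0.284 points). In none did p pass 0.05, which 3 against 3 libraries cannot reach. The gap to sparse CpGs, -0.349 points, stayed below 0 under all 15 settings, from -0.417 to -0.291, and from -0.368 to -0.303 with each library omitted. Deviations of same-numbered libraries correlated at 0.00537, 0.0214 and -0.0114 over CpGs. Counting error makes up much of the spread at these CpGs, so this cannot show whether replicate numbers pair the libraries. With libraries paired by replicate number, the mean differences are the same by arithmetic, so that setting is no check on their sign or size. They were 0.144 points (exact sign-flip p = 0.50) and -0.349 points for the gap (exact sign-flip p = 0.25, the smallest possible with 3 pairs). edgeR fits with the replicate block gave 0 calls. edgeR called 0 CpGs and 0 windows of this class under every setting run, and limma called 0 and 0. The share of dense common CpGs that were highly methylated, 13.9%, was 13 to 15.6% with other limits and 13.2 to 13.9% with a library omitted. The share of chosen CpGs in windows with at least 80% of common CpGs chosen, 62.0%, was 61.0 to 66.7% and 60.03 to 61.8%. The 2 shallow libraries decide which CpGs are common: 20758 CpGs qualified without SAM replicate 2 and 22639 without control replicate 2. An alternative added after seeing the data, stricter promoter placement, gave 23 methylated promoters in place of 63; fewer promoters were placed.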
